A study of Mus musculus with 4 samples.

Results

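Homing receptors and niche adhesion genes were followed in mouse LSK cells, the bone marrow fraction that lacks lineage markers and carries Sca-1 and Kit. The set held 9 genes of the 13749 gene symbols in the deposited table, chosen by name for their textbook roles: Cxcr4, Itga4, Itga6, Itgb1, Itgal, Itgb2, Cd44, Selplg and Cd47. They were listed as 14 of 18691 RefSeq transcripts. All 9 passed the filter on low values, a mean of at least 1 FPKM (fragments per kilobase of transcript, scaled to the depth of the library) over the libraries. Cells were sorted from C57BL/6 mice aged 8 weeks, 8 of genotype Asxl1+/+ (WT) and 8 of genotype Asxl1G643fs/+ (KI), which carry 1 frameshift knock-in allele of Asxl1, a gene for a chromatin regulator. Each genotype had 2 libraries, numbered 1 and 2 (WT-1, WT-2; KI-1, KI-2), and values are given in that order, a list of 4 running from WT to KI. The labels did not say whether a library was a pool or whether equal numbers shared a sort or a day, so p-values measure the spread between libraries, which may be technical.

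Stem and progenitor cells are held in the marrow, and return to it after transplantation, by a small set of surface proteins. The receptor CXCR4 reads CXCL12 made by stromal cells and turns on integrins, which are pairs of an alpha and a beta chain. Itga4 and Itgb1 encode the pair VLA-4, which binds VCAM1 and fibronectin, Itga6 pairs with the same beta chain to bind laminins, and Itgal and Itgb2 encode LFA-1, which binds ICAM proteins. PSGL-1, the product of Selplg, tethers rolling cells to selectins on the vessel wall. CD44 binds hyaluronan in the matrix, and CD47 signals to SIRPA on macrophages and so protects a cell from being engulfed.

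The listed FPKM summed to between 324255 and 411542 per library. Fragment counts were not used here, but low FPKM values fell in steps. For long single-transcript genes, between 50.4% and 56.7% of low values lay within 0.1 of a whole number of fragments, against 20% for evenly spread values. The step sizes were fitted to these same values, which raises that share, while the 20% holds for steps fixed beforehand. These step sizes gave an estimated 17000000 and 21100000 fragments in the WT libraries and 20000000 and 21600000 in the KI libraries. For the 6 members with 1 transcript this comes to between 637 and 6897 fragments per library, a counting error of at most 3.96%, which covers sampling of fragments only. The gate's own markers were high: Kit stood between 81.9 and 105 FPKM and Ly6a, which encodes Sca-1, between 20.7 and 41.9 FPKM. Of lineage markers, Cd3d stood between 0.0404 and 0.28 FPKM and Ms4a1 between 0.0264 and 0.449 FPKM, while Itgam, Cd79a and Nkg7 stood above 9 FPKM in every library. In bulk RNA, fewer cells of a type and less RNA per cell cannot be told apart.

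All 9 genes were well expressed. The level, in FPKM and so per length, was highest for Itgb1, with a mean of 75.4 FPKM over the 4 libraries, above 93.1% of the 11083 tested genes. Selplg followed at 60.3, Cd47 at 51.3, Cd44 at 33.2, Itga4 at 31.0, Cxcr4 at 27.1, Itga6 at 24.2 and Itgal at 19.4, and Itgb2 was lowest at 17.7 FPKM, above 63.6% of tested genes. Neighbours in this order had overlapping ranges over the libraries at every step but 1: the lowest value of Cd47, 43.3 FPKM, lay above the highest of Cd44, 39.1 FPKM.

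**Figure D1:**
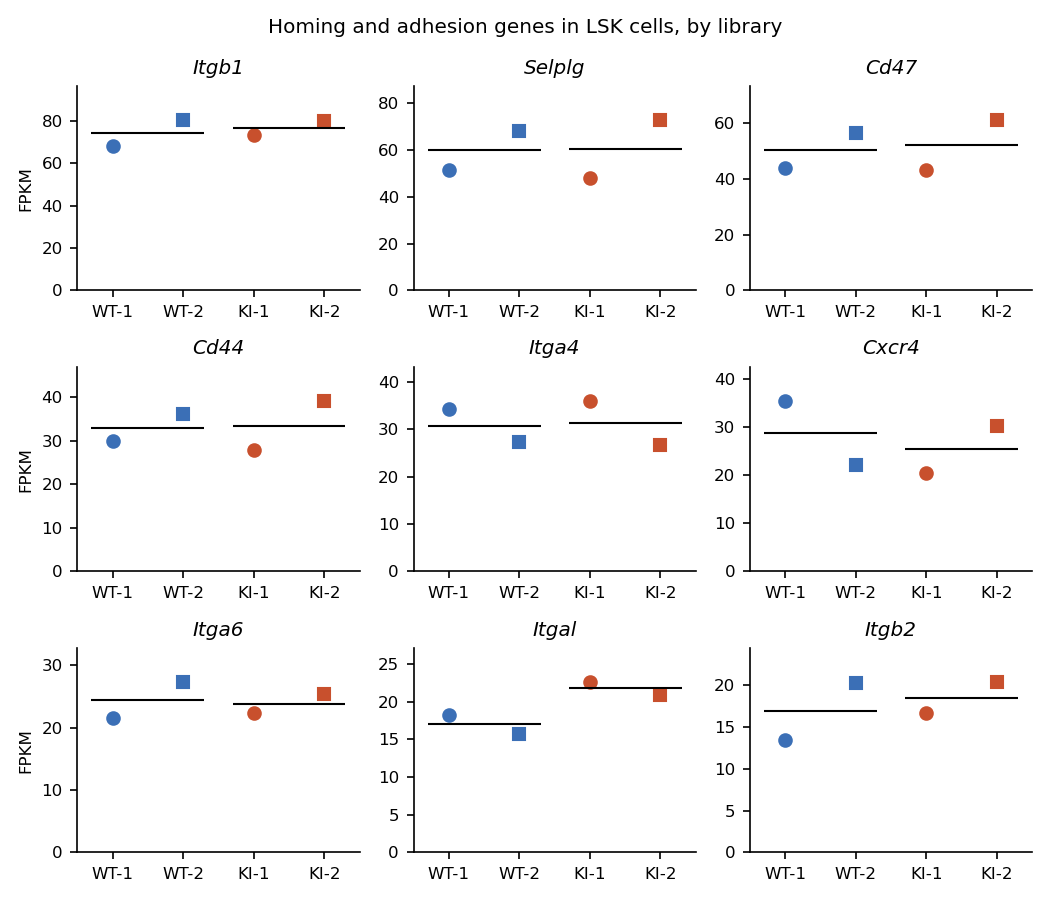
FPKM of each of the 9 genes in each library, from the most to the least abundant, with WT in blue, KI in red, libraries numbered 1 as circles, those numbered 2 as squares and lines at the mean of 2 libraries. Itgal has both KI points above both WT points, Cxcr4 has its highest point in WT-1 and its lowest in KI-1, and most other genes follow the library number.

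The comparison of KI with WT asks whether 1 mutant Asxl1 allele goes with a different level of these genes. No member passed the test between the genotypes (limma on log2(FPKM + 1), 0 of 9 at an adjusted p of 0.05, each with adjusted p = 1), and 0 of 9 had an unadjusted p under 0.05. Over all 11083 genes the percentage called was 0%, and 0.424% had an unadjusted p under 0.05. The log2 fold change was above 0 for 6 of 9 members, as for 52.1% of all tested genes, and its median was 0.0195, beside 0.00748 over all tested genes. For the 7 members other than Cxcr4 and Itgal, log2 fold changes lay between -0.0285 and 0.149, while the SE over all 9 ran from 0.21 to 0.314. Changes of that size were not detectable with 2 libraries per group. Much larger changes also failed the test, such as 0.93 with SE 0.32 for Plaur, a receptor gene outside the members. The lack of calls therefore does not show that the members were unchanged. An exact permutation test of 2 against 2 libraries cannot give a p below 0.333.

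Itgal, the alpha chain of LFA-1, was the member with the highest fold change. It lies on chromosome 7 (GRCm38, 127296139 to 127335137). It stood at 18.3 and 15.8 FPKM in the WT libraries and 22.6 and 20.9 FPKM in the KI libraries. Both KI libraries lay above both WT libraries, the 1 case without overlap among the 9 members, where 13.5% of all tested genes had groups that did not overlap with 6.39% having KI above and 7.06% KI below. The means of WT and KI were 17.0 ± 1.78 and 21.8 ± 1.19 FPKM (SD, n = 2), a 1.28-fold ratio of KI to WT. The log2 fold change was 0.34 with SE 0.21 (limma, unadjusted p = 0.157, adjusted p = 1), and 3.37% of tested genes had one as high or higher. It was 0.29 within the libraries numbered 1 and 0.39 within those numbered 2, 0.49 for KI-1 against WT-2 and 0.19 for KI-2 against WT-1. It stayed above 0 without each library, from 0.24 without WT-2 to 0.44 without WT-1.

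Mature myeloid and lymphoid cells also express Itgal, so their markers were read beside it. Of 15 monocyte and neutrophil markers, Ly6g, Camp and Retnlg were not analysed here, 12 were listed, 0 of them at 0, and 11 tested. Of those 11, 7 were higher and 0 lower in KI within both numbers. For 4 of them both KI libraries lay above both WT libraries, and for 0 both lay below. Between the genotypes 2 had an unadjusted p under 0.05 (limma), 0 were called, and the median log2 fold change was 0.46. The list summed to 125 and 200 FPKM in the WT libraries and 231 and 202 FPKM in the KI libraries. Of 10 B cell markers, 8 were tested, with 6 higher and 0 lower in KI within both numbers. This list summed to 32.5, 80.5, 42.5 and 138 FPKM, higher in the libraries numbered 2 of each genotype. T and NK cell markers, 9 of 12 listed, summed to 56.7, 70.1, 51.9 and 68.5 FPKM, lower in KI within both numbers. Most of that sum was Nkg7, at 40.9, 46.1, 33.6 and 43.4 FPKM. Of 5 tested T and NK cell markers, 2 were higher and 1 lower in KI within both numbers. For 2 both KI libraries lay above both WT libraries, and for 0 both lay below. Beside these, 28.7% of all tested genes were higher and 25.5% lower in KI within both numbers. Both KI libraries lay above both WT libraries for 6.39% of all tested genes, and 0.424% had an unadjusted p under 0.05 (limma). The most abundant of the monocyte and neutrophil markers, Lyz2, which encodes a lysozyme, stood at 57.1, 152, 60.5 and 141 FPKM and was high in the libraries numbered 2 of both genotypes. Ly6c2, a monocyte marker and the next in abundance, stood at 7.01, 18.4, 44.3 and 26.0 FPKM, with both KI libraries above both WT libraries. Between the library numbers, 1 of the 11 tested monocyte and neutrophil markers was called higher in number 2 and 4 lower (limma, adjusted p under 0.05). Over all tested genes 35.6% were called higher and 4.6% lower. The median log2 fold change of these markers, number 2 minus number 1, was -0.18, so Lyz2 does not stand for its list. The part of mature myeloid and lymphoid cells in the level of Itgal was not tested. Among the 128 tested genes of 6 lists around homing and adhesion, those whose pattern over the 4 libraries was closest to Itgal were Itgax and Itgam, other alpha chains that pair with Itgb2. The root mean square difference of their centred log2(FPKM + 1) values from those of Itgal was 0.0667 and 0.0885. Itgax was near the filter, at 1.43, 1.13, 1.69 and 1.59 FPKM, where log2(FPKM + 1) understates changes. Itgam stood at 15.9, 16.3, 20.7 and 20.1 FPKM, again with both KI libraries above both WT libraries, but its log2 fold change turned from 0.33 to -0.48 when the most abundant transcript alone stood for the gene.

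Itgb2, the beta chain that all these alpha chains need, did not follow Itgal. It stood at 13.4 and 20.3 FPKM in the WT libraries and 16.6 and 20.3 FPKM in the KI libraries, and the genotypes overlapped. The log2 fold change was 0.15 with SE 0.27 (limma, adjusted p = 1), with 0.29 within number 1 and 0.0042 within number 2. Its sign turned without WT-1, to -0.13. The ratio of Itgal to Itgb2, taken within a library and so free of library scale, was 1.37 and 0.777 in the WT libraries and 1.36 and 1.03 in the KI libraries. It was higher in both libraries numbered 1, whatever the genotype (exact two-sided permutation test between numbers p = 0.333, the smallest that 2 against 2 libraries allow).

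Cxcr4, on chromosome 1 (GRCm38, 128588199 to 128592299), was the least steady member. It stood at 35.5 and 22.2 FPKM in the WT libraries and 20.5 and 30.3 FPKM in the KI libraries. The highest and the lowest library were thus the WT and KI libraries numbered 1, and the genotypes overlapped. KI-1 held 0.579 times the level of WT-1, while KI-2 held 1.37 times that of WT-2. On the log2 scale the differences were -0.76 within number 1 and 0.43 within number 2. The within-number differences thus stood 1.19 apart, and 1.06% of tested genes had a gap as large or larger. For the other 8 members the gap ran from 0.0949 to 0.289. The estimated fragments behind these levels were 986, 768, 670 and 1070. The 4 libraries hold no replicate of a genotype within a number, so that the gap was not tested.

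Over both numbers the log2 fold change of Cxcr4 was -0.16 with SE 0.31 (limma, unadjusted p = 0.62, adjusted p = 1), with means of 28.8 ± 9.36 FPKM for WT and 25.4 ± 6.95 FPKM for KI (SD, n = 2). It turned to 0.16 without WT-1 and to 0.11 without KI-1, and stood at -0.49 without WT-2 and -0.44 without KI-2. The crossing is also present in the authors' deposited log2 values, 5.04, 4.60, 4.52 and 4.96 in the same order of libraries. Of the 128 genes around homing and adhesion, the closest in pattern were Cd97, an adhesion receptor, and Rgs2, a brake on G protein signalling. Cd97 stood at 19.2, 13.2, 11.1 and 14.3 FPKM and Rgs2 at 138, 90.5, 94.4 and 104 FPKM, at root mean square log2 differences of 0.116 and 0.144 from Cxcr4. The 18 immediate early genes, a quick response to stimuli such as handling, summed to 10597 and 3707 FPKM in the WT libraries and 5377 and 3713 FPKM in the KI libraries. The sum was thus highest in WT-1 and nearly equal in WT-2 and KI-2. The part of these genes in the level of Cxcr4 was not tested.

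**Figure D2:**
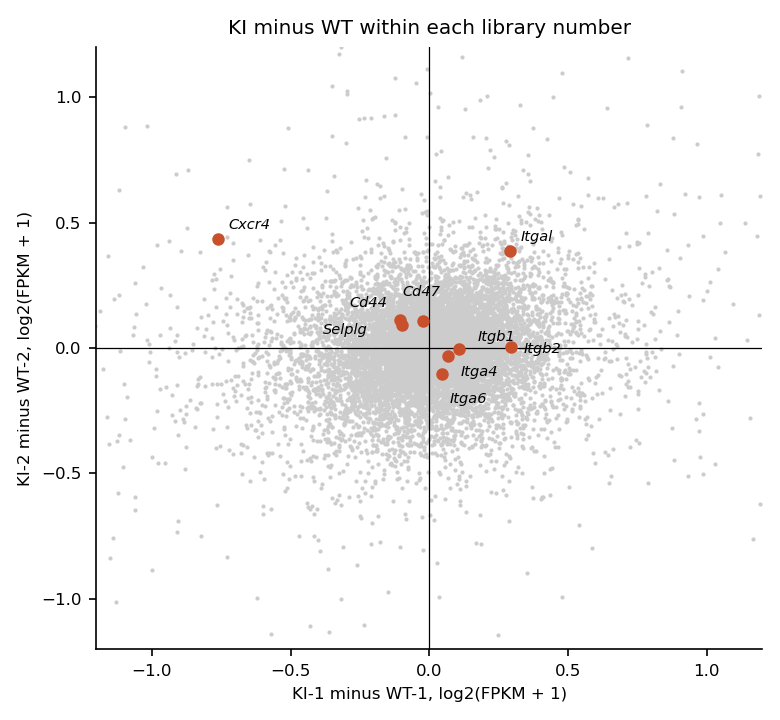
Difference of KI from WT in log2(FPKM + 1) within the libraries numbered 1 (horizontal axis) and within those numbered 2 (vertical axis), for all tested genes (grey, 105 outside the axes) and the 9 members (red). Itgal lies above 0 on both axes, at 0.29 and 0.39, Cxcr4 lies at -0.76 and 0.43, and the other 7 lie nearer to 0.

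Across the 9 members, KI minus WT had opposite signs in the 2 numbers for 7 genes, was above 0 in both for Itgal and Itgb2, and was below 0 in both for 0 genes. Over all tested genes the signs were opposite for 45.8%, both above 0 for 28.7% and both below 0 for 25.5%.

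The chains of the laminin and fibronectin receptors differed little between the genotypes. Itgb1, their shared beta chain on chromosome 8, stood at 68.0 and 80.4 FPKM in the WT libraries and 73.3 and 80.0 FPKM in the KI libraries, with a log2 fold change of 0.051 (SE 0.22, limma adjusted p = 1). Itga4, on chromosome 2, stood at 34.2, 27.3, 36.0 and 26.7 FPKM, with a log2 fold change of 0.019 (SE 0.25), and here the 2 libraries numbered 1 were the high ones. Itga6, also on chromosome 2, stood at 21.6, 27.3, 22.4 and 25.4 FPKM, with a log2 fold change of -0.029 (SE 0.22). The genotypes overlapped for all 3 genes, and each fold change turned its sign when 1 library was left out.

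Within a library, the ratio of Itga4 to Itgb1 separated the library numbers and not the genotypes. It was 0.504 (WT) and 0.491 (KI) for number 1, but 0.339 (WT) and 0.333 (KI) for number 2 (exact two-sided permutation test between numbers p = 0.333, the smallest possible). The ratio of Itga6 to Itgb1 was 0.3185 and 0.3401 in the WT libraries and 0.3051 and 0.3174 in the KI libraries. Both KI values of this ratio lay below both WT values, by a small margin (exact two-sided permutation test between genotypes p = 0.333, again the smallest possible). Between the alpha chains, Itga4 stood at 1.58 and 1.61 times Itga6 in the libraries numbered 1 and at 0.998 and 1.05 times in those numbered 2. A ratio shows that 2 genes changed unequally, not which of them changed.

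**Figure D3:**
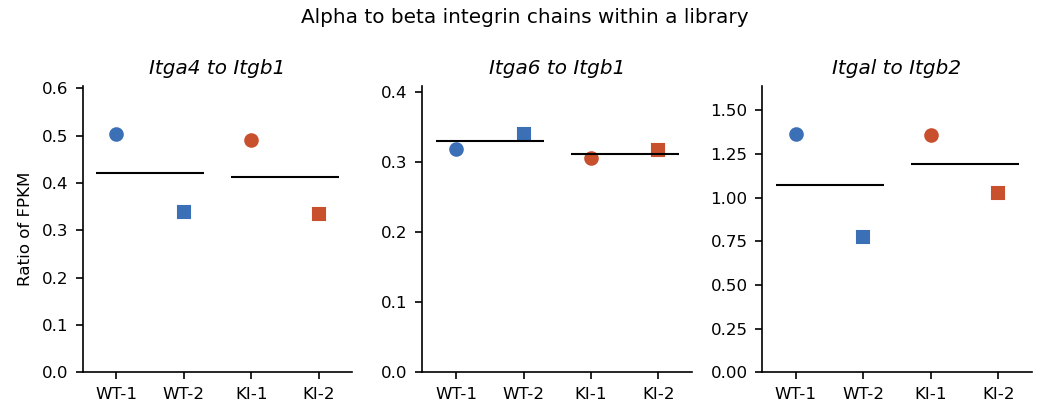
Ratio of the FPKM of an alpha chain to that of its beta chain in each library (WT blue, KI red, number 1 circles, number 2 squares, lines at group means). The ratio of Itga4 to Itgb1 is near 0.5 in the libraries numbered 1 and near 0.34 and 0.333 in those numbered 2, and that of Itgal to Itgb2 is also higher in the libraries numbered 1.

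The remaining receptors had nearly the same pattern as one another. Selplg stood at 51.7 and 68.3 FPKM in the WT libraries and 48.2 and 72.8 FPKM in the KI libraries, with a log2 fold change between genotypes of -0.0032 and SE 0.29. Cd47 stood at 44.0, 56.7, 43.3 and 61.2 FPKM, with a log2 fold change of 0.043 and SE 0.27. Cd44 stood at 30.0, 36.1, 27.8 and 39.1 FPKM, with a log2 fold change of 0.0036 and SE 0.25. In each of the 3 genes KI-2 was highest, WT-2 next, then WT-1, and KI-1 lowest, and the genotypes overlapped. The summed FPKM of the libraries had the same order, at 411542 (KI-2), 402754 (WT-2), 337313 (WT-1) and 324255 (KI-1). The pairs of members closest in pattern were Cd44 with Cd47, at a root mean square log2 difference of 0.0407, and Selplg with Cd47, at 0.0428, where Cxcr4 lay at least 0.333 from every other member. Among the 128 genes around homing and adhesion, some lay closer still. Gnb1 lay at 0.00822 from Cd47, Pxn at 0.0209 from Cd44 and Rhoa at 0.0305 from Selplg.

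In the authors' deposited table, which tests each transcript, 0 of 14 member transcripts had an adjusted p under 0.05, against 3 of 18691 transcripts in all. In the authors' deposited table a single member transcript had an unadjusted p under 0.05, the Itgal transcript NM_008400 (signed fold 1.16, p = 0.0358, adjusted p = 0.202), where 21.6% of all transcripts did.

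Itga6, Itgal and Cd44 were each listed as several transcripts. Coding sequence differs between the forms of Itga6, between those of Cd44 and between pairs of Itgal transcripts. The Itga6 transcripts encode the alternative tails that the alpha chain turns to the inside of the cell, known as A and B. NM_008397 holds an exon for a tail of 105 coding bases, and NM_001277970 skips it and reads 159 coding bases of the next exon. The stretches are shown because they are what tells the forms apart. They were read from GENCODE transcripts cross-referenced to each accession (GRCm38, plus strand), with the stop codon in capitals, at chr2:71853534-71853641 and chr2:71855854-71856015.
Itga6, tail of NM_008397: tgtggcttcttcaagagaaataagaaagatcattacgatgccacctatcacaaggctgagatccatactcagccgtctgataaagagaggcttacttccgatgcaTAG
Itga6, tail of NM_001277970: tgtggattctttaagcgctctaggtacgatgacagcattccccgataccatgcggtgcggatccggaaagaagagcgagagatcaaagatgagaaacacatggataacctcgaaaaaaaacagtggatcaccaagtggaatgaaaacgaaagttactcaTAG

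The form with the additional exon made up most of Itga6 in every library. NM_008397 stood at 18.2 and 25.1 FPKM in the WT libraries and 19.4 and 21.4 FPKM in the KI libraries, or 83.9%, 91.7%, 86.8% and 84.2% of the gene's FPKM. NM_001277970 stood at 3.48, 2.26, 2.95 and 4.02 FPKM, and WT-2 had its lowest share, 8.27%. The genotypes overlapped for both forms. Over 13826 tested transcripts limma called 0% between KI and WT, and 1.13% had an unadjusted p under 0.05. NM_008397 had a log2 fold change of -0.065 with SE 0.25 and NM_001277970 one of 0.22 with SE 0.33 (limma, adjusted p = 1 for both).

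Cd44 was listed as NM_001039151, a form without variable exons, and NM_001177786, which adds 3 variable exons of 399 bases in the extracellular stem of the protein. Variable exons are spliced into CD44 in epithelial and activated cells, and those of NM_001177786 are shown because they alone set the coding sequences apart. They lie on the minus strand (GRCm38), in order of transcription at chr2:102834234-102834335, chr2:102832483-102832572 and chr2:102831330-102831536.
Cd44, variable exon of 102 bases: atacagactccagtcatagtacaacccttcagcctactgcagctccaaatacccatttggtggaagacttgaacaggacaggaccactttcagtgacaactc
Cd44, variable exon of 90 bases: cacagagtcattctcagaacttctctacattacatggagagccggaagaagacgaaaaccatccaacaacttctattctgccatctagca
Cd44, variable exon of 207 bases: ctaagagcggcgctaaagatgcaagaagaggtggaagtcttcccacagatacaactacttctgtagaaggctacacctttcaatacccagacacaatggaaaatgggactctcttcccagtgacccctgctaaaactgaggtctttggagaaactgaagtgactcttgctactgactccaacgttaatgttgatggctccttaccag

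The form without variable exons stood at 29.4, 35.7, 27.0 and 37.8 FPKM in the same order and made up at least 96.6% of Cd44 in each library. Its log2 fold change was -0.019 with SE 0.26 (limma, adjusted p = 1). The form with 3 variable exons stood at 0.57 and 0.391 FPKM in the WT libraries and 0.745 and 1.35 FPKM in the KI libraries, so that both KI libraries lay above both WT libraries. Among tested transcripts, all of which passed the filter, 8.2% had KI above in this way and 16.8% had genotypes that did not overlap. Its share was 1.90% and 1.08% in WT and 2.68% and 3.44% in KI. With a mean of 0.763 FPKM it was below the filter and was not tested here, and in the authors' deposited table it had a signed fold of 1.26 with adjusted p = 0.445.

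The 4 Itgal transcripts were grouped into pairs by the end of 1 exon and by coding length. NM_001253872 and NM_001253874 are cross-referenced to a GENCODE transcript whose exon at chr7:127317277-127317366 (GRCm38, plus strand) runs 3 bases further than that of NM_001253873. The longer pair shares 1 GENCODE transcript, so a coding difference within that pair could not show here. NM_008400 was placed with NM_001253873 as the shorter pair because GENCODE gave 1161 codons for each. The exons of NM_008400 were not compared. Sharing of fragments between the 4 was set by the authors' estimation. The exon is printed with the bases found only in the longer form in capitals.
Itgal, exon of 90 bases: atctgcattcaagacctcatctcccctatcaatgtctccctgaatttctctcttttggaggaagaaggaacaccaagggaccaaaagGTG

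The shorter pair, as grouped above, made up 63.4% and 64.7% of Itgal in the WT libraries and 56.4% and 76.3% in the KI libraries. KI-1 and KI-2 thus held the lowest and the highest share, with both WT libraries between them. The most abundant transcript, NM_001253873, stood at 9.82, 8.46, 10.5 and 13.5 FPKM, with KI above WT, and NM_008400 at 1.77, 1.74, 2.24 and 2.47 FPKM, likewise. Of all tested transcripts, 16.8% had genotypes that did not overlap and 8.2% had both KI libraries above both WT. The log2 fold changes were 0.35 with SE 0.25 for NM_001253873 and 0.28 with SE 0.31 for NM_008400 (limma, adjusted p = 1 for both). NM_001253872 stood at 5.68, 4.61, 8.12 and 4.20 FPKM and NM_001253874 at 1.01, 0.942, 1.73 and 0.753 FPKM, both with the highest value in KI-1 and the lowest in KI-2. Within number 1 both pairs were thus higher in KI, while within number 2 the shorter pair was higher and the longer pair lower, and this difference was not tested.

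**Figure D4:**
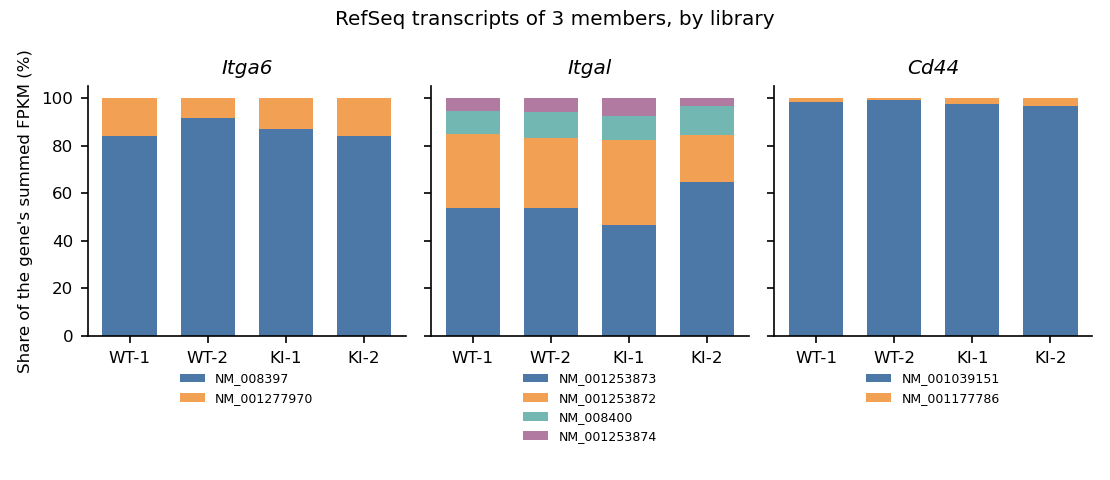
Share of each RefSeq transcript in the summed FPKM of its gene, in percent, for Itga6, Itgal and Cd44 in the 4 libraries. The Itga6 form with the additional exon holds between 83.9% and 91.7%, the Cd44 form without variable exons at least 96.6%, and the shares of the Itgal transcripts differ most between KI-1 and KI-2.

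The members were then read across the library numbers, the larger difference in these libraries. Of 9 members, 5 passed the test between libraries numbered 2 and 1 (limma, number as the only term), 4 higher in number 2 and 1 lower, where 40.2% of all tested genes passed, 35.6% higher and 4.6% lower. For 7 of 9 members the numbers did not overlap, as for 76.1% of all tested genes. Selplg was higher by a log2 fold change of 0.49 (SE 0.082, adjusted p = 0.00754), Cd47 by 0.42 (SE 0.081, adjusted p = 0.0101), Itgb2 by 0.42 (SE 0.12, adjusted p = 0.0339) and Cd44 by 0.37 (SE 0.09, adjusted p = 0.0208). Itga4 was lower, at -0.37 (SE 0.082, adjusted p = 0.0161). Itga6 (0.25, adjusted p = 0.0621), Itgb1 (0.18, adjusted p = 0.104), Itgal (-0.15, adjusted p = 0.457) and Cxcr4 (-0.054, adjusted p = 0.876) did not pass.

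The median tested gene was higher in number 2 by 0.27 on the log2 scale, so that part of these differences was shared by most genes. Relative to that median, Selplg stood at 0.22, Cd47 and Itgb2 at 0.15 each, Cd44 at 0.098, Itga6 at -0.02, Itgb1 at -0.088, Cxcr4 at -0.32, Itgal at -0.43 and Itga4 at -0.64. With libraries scaled to equal medians, 1 member passed, Itga4 (log2 fold change -0.62, SE 0.081, limma adjusted p = 0.00813), where 9.12% of tested genes passed as higher and 10.4% as lower. With quantile scaling it was again Itga4 alone (-0.62, limma adjusted p = 0.00853), with 9.3% higher and 10.4% lower. Both libraries numbered 2 lay below both numbered 1 for Itga4, at 26.7 and 27.3 FPKM against 34.2 and 36.0. In the authors' deposited normalized log2 values, Itga4 stood at 4.967, 5.004, 5.014 and 4.966 and Selplg at 5.95, 5.90, 5.90 and 5.96, with overlapping numbers. For each of the 14 member transcripts, these values rose from number 1 to number 2 in either WT or KI. They fell by nearly as much in the other genotype. The deposited values thus held almost no number difference for any member, so its absence there says nothing about Itga4 or Selplg. How these values were normalized is not given in the labels or headers. The call of Itga4 was lost without WT-2 (limma adjusted p = 0.0888) and without KI-2 (0.104). Without KI-2, 0 of 9 members passed, and without WT-2, 2 did. The call of Itgb2 was lost in both cases and also without WT-1 (limma adjusted p = 0.0729), with no filter on low values (0.0581) and with the top transcript per gene (0.0561).

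**Figure D5:**
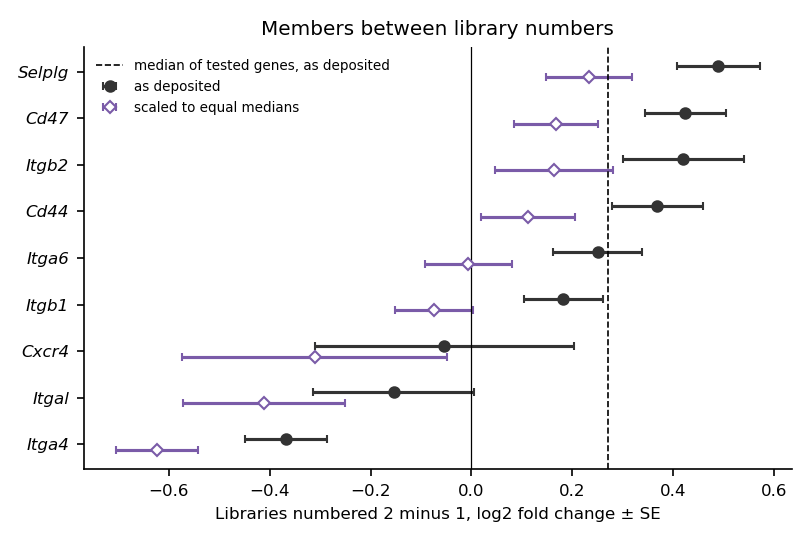
Log2 fold change of each member between libraries numbered 2 and 1 with its SE, from FPKM as deposited (filled circles) and after scaling libraries to equal medians (open diamonds), with the median of all tested genes as deposited at 0.27 (dashed). Itga4 lies below 0 under both, and the 4 genes called as higher move toward 0 with scaling.

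Around the members, the genes of the same pathways were read from 6 lists, none of which held a gene called by limma between KI and WT. Of 21 further integrin chains, 10 were tested, 0 called in either direction, with a median log2 fold change of 0.173. The 3 with the smallest unadjusted p were Itgam, whose WT mean was 16.1 ± 0.319 and KI mean 20.4 ± 0.391 FPKM (SD, n = 2), Itga9, at 1.52 and 2.09 FPKM, and Itgb7, the other beta partner of Itga4, at 14.5 and 17.4 FPKM. Of 32 genes for integrin activation and its link to actin, 25 were tested with 0 called and a median of -0.0042. Parvb had means of 1.15 FPKM for WT and 1.53 for KI, with the adaptor gene Zyx at 223 and 192 FPKM and the focal adhesion kinase gene Ptk2 at 2.32 and 1.97 FPKM.

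Of 34 genes of CXCR4 signalling and its control, 31 were tested with 0 called between genotypes and a median log2 fold change of 0.026. Dpp4, a peptidase that cleaves CXCL12, stood at 15.7 and 16.6 FPKM in WT and 21.0 and 19.3 in KI, both KI libraries above WT (log2 fold change 0.31, SE 0.2, limma adjusted p = 1). Of all tested genes, 6.39% had both KI libraries above both WT libraries in this way. Foxo1 stood at 4.83 and 5.94 FPKM as group means and Rgs1, a brake on chemokine receptor signalling, at 933 FPKM in WT-1 against 405 to 531 FPKM in the other 3 libraries. Of 17 genes that build the sugars and sulfates PSGL-1 needs to bind selectins, 16 were tested with 0 called and a median of -0.0045. Fut7, the fucosyltransferase of leukocyte selectin ligands, stood at 7.34 and 6.64 FPKM in WT and at 4.56 and 6.37 in KI, St3gal6 at 3.06 and 1.91 FPKM and Fut4 at 1.45 and 2.10 FPKM as means of WT and KI.

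Of 44 other adhesion and migration receptors, 37 were tested with 0 called and a median log2 fold change of 0.0022. An unadjusted p under 0.05 (limma) was found for 0.424% of all tested genes and for 1 of these 37. This was Plaur, the urokinase receptor, at 10.4 and 16.0 FPKM in WT and 20.4 and 32.1 in KI (log2 fold change 0.93, SE 0.32, limma adjusted p = 1). The groups did not overlap, as for 13.5% of all tested genes. The difference was 0.91 within number 1, 0.96 within number 2, 0.33 for KI-1 against WT-2 and 1.54 for KI-2 against WT-1. Without KI-2 the log2 fold change of Plaur was 0.62, and without WT-1 it was 0.64, against 1.22 without WT-2 and 1.25 without KI-1. Cd97 stood at 16.2 and 12.7 FPKM and the prostaglandin receptor gene Ptger4 at 15.6 and 12.7 FPKM as means of WT and KI. Of 20 niche ligands and matrix partners, 9 were tested with 0 called and a median of -0.088. Thbs1, which encodes a ligand of CD47, stood at 14.8 and 22.1 FPKM in WT and 21.0 and 48.3 in KI, with overlap. The chemokine gene Ccl3 stood at 91.3 and 139 FPKM in WT and 84.7 and 79.7 in KI, and the laminin chain gene Lamc1 at 4.04 and 5.41 FPKM as group means.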

How the data were processed

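RNA of sorted LSK cells was sequenced in 4 libraries. The submitters' processing notes name TopHat, Cufflinks and the build mm10, which is GRCm38; no versions are given there. The authors deposited 1 table of RefSeq transcripts with FPKM values per library, normalized log2 values, and a comparison of KI with WT holding a signed fold (a score), p-values and adjusted p-values, per the file headers. The table lists no value of 0 (lowest 1e-06). Here the FPKM of all transcripts of a symbol were added, a mean of at least 1 was required, and log2(FPKM + 1), which understates changes of low genes, was tested two-sided in limma 3.58.1 (R 4.3.3) using a variance trend and Benjamini-Hochberg adjustment at 0.05 over all tested genes or transcripts. The main fits used genotype or library number as the only term. Fits were tested on simulated data. For the genotype fits these held no difference between library numbers, so they do not show how those fits behave with such a difference. Positions and names came from RefSeq GRCm38.p6 and sequences from GENCODE M21; all 9 members matched. Depth was estimated from steps in low FPKM values, using GENCODE lengths and the fragment length that gave the clearest steps, 170 bases. Members, lists and tests were chosen with earlier results of these data known. From each list the text names the 3 tested genes with the smallest unadjusted p, and as likeness the 2 nearest genes of the 6 lists; lineage markers named beyond the 2 most abundant per list (Cd3d, Ms4a1, Itgam) were picked after their values were seen. Alternatives were another pseudocount, 2 other filters, 2 scalings, the top transcript per gene, the other factor as a term, and leaving out each library.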

Additional observations from a re-analysis of the deposited data

How the results depend on the processing

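Limits: 2 libraries per genotype, numbers that may or may not pair them, and estimated isoform shares. Between KI and WT, 0 members were called under every alternative run. Over all genes the count was 0 except 1 with the library number as a block and 7 to 37 when 1 library was left out, and over transcripts 0 except 13 to 115 then; a lone library was assumed to vary like the others, and such fits leave the numbers unbalanced. Equal numbers deviated together (correlation 0.691 across genes), which 2 pairs cannot show to be pairing; with the replicate block, Itgal had SE 0.088, unadjusted p = 0.01 and adjusted p = 0.678 (limma). Leaving out 1 library, log2 fold changes between genotypes ranged from -0.49 to 0.16 for Cxcr4, -0.19 to 0.23 for Itga4, -0.19 to 0.13 for Itga6, -0.069 to 0.17 for Itgb1, -0.13 to 0.43 for Itgb2, -0.24 to 0.24 for Cd44, -0.30 to 0.29 for Selplg, -0.20 to 0.29 for Cd47, -0.033 to 0.58 for Foxo1, -0.98 to 0.22 for Rgs1 and -0.92 to 0.062 for St3gal6. For transcripts they ranged from -0.25 to 0.21 for NM_001039151, -0.24 to 0.57 for NM_001253872, -0.17 to 0.46 for NM_001253874, -0.0074 to 0.45 for NM_001277970 and -0.29 to 0.16 for NM_008397. Cd44 turned to -0.00064 with quantile scaling. With the top transcript per gene, Cd44 turned to -0.019, Itgam to -0.48 and Ptger4 to 0.77. Between library numbers, genes called fell from 4452 (3942 higher, 510 lower) to 2163 with median scaling (1011 and 1152) and 2187 with quantile scaling (1031 and 1156), members called from 5 to 1 with either (4 with no filter or the top transcript), and to between 1162 and 4808 genes and 0 and 5 members without 1 library. Median and quantile scaling turned Itga6 to -0.0063 and -0.0056 and Itgb1 to -0.074 and -0.044. The top transcript turned Itgal to 0.069, and without 1 library Cxcr4 ranged from -0.43 to 0.33 and Itgal from -0.35 to 0.039. The cause was not tested.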
